A study of Mus musculus and Bos taurus with 26 samples.

Results

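The genes described here are 9 subunits of the Polycomb repressive complexes and Epop, a protein that binds one of them, in RNA-seq of mouse 2-cell embryos and bovine 8/16-cell embryos. They are 10 of the 27988 genes of the mouse table and, as upper-case symbols, 10 of the 21577 genes of the bovine table, and every one was found in both. Ezh1, Ezh2, Eed, Suz12, Jarid2, Mtf2, Phf19, Ring1 and Rnf2 were chosen by function. Epop was selected on its low level in mouse control embryos and its high level in treated ones, a choice made on measured values with no numerical limit, so its mouse levels against those controls are given as a description with no test.

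Polycomb repressive complex 2 (PRC2) places methyl groups on lysine 27 of histone H3, a mark of silent developmental genes. Ezh2 or its paralog Ezh1 is the catalytic subunit, Eed binds the finished mark, and Suz12 is the scaffold that holds the complex together. Accessory subunits form alternative versions of PRC2. Mtf2 and Phf19 are Polycomb-like proteins that bring the complex to unmethylated CpG-rich DNA, Jarid2 belongs to another version, and Epop joins PRC2 together with Polycomb-like proteins and links it to elongin B and C and to the deubiquitinase Usp7. Polycomb repressive complex 1 (PRC1) contains Rnf2 or Ring1 as its ubiquitin ligase for histone H2A. Lysine 27 of histone H3 can carry either the Polycomb methyl mark or an acetyl group, and histone deacetylases such as Hdac1 and Hdac2 remove the acetyl group.

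The series asked whether these deacetylases are needed for the activation of the embryonic genome and for the placement of active histone marks. Mouse zygotes received water (H2O), mRNA of wild-type (WT) or mutant Hdac1, or mRNA of wild-type or mutant Hdac2, and were taken at the late 2-cell stage 36 h after fertilization. Wild-type and mutant Hdac1 embryos were also taken at the early 2-cell stage at 24 h. Further embryos received mutant Hdac1 mRNA as zygotes, then water or mRNA of the H3K4 demethylase Kdm5b in both blastomeres at the early 2-cell stage, and were taken at 36 h. In the drug experiments, zygotes were cultured with DMSO or with 50 nM FK228, an inhibitor of class I histone deacetylases, mouse embryos in KSOM until 36 h and bovine embryos in BO-IVC until 72 h. The injected mRNAs act beside the embryo's own Hdac1 and Hdac2, and the labels do not name the mutations. There were 13 groups of 2 libraries, 22 libraries from mouse and 4 from cattle. No label says that the 2 libraries of a group came from separate collections of embryos, so the p-values reflect the scatter of these libraries alone, and part of it may be technical.

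Values are FPKM, fragments scaled by transcript length and by library size, so levels of different genes can be compared. Differences are on the scale of log2(FPKM + 1), with their standard error (SE) from limma; p-values are limma's, Benjamini-Hochberg adjusted over 17336 mouse or 12590 bovine genes, and a gene was called below 0.05. "Rose" and "fell" are used for called genes. The number of genes at 1 FPKM or more ranged from 10704 to 14554 over the mouse libraries and from 11598 to 12141 over the bovine ones, and the 2 libraries of a group correlated at r = 0.933 to 0.987 across genes. Sequencing depth is not known; from the size of the smallest steps in the values, relative depth among mouse libraries spanned a range of about 1.91 times. All 12 oocyte and early embryo markers and all 9 markers of the 2-cell embryo exceeded 1 FPKM in every mouse library, as did all 9 oocyte and embryo markers found in the bovine table. Expression was measured in bulk, so fewer expressing cells and less RNA per cell cannot be told apart.

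The promoters of these genes are CpG-rich. RefSeq's table (GRCm38.p6; 250 bases before to 50 after the start) held a promoter for 9 of the 10 genes, all but Epop. The main entry of each held between 17 (Eed) and 41 (Suz12) CpG dinucleotides, against a median of 7 over 32851 promoters of 27025 genes. The motifs searched, on both strands, were GGGCGG, found in 35.7% of all promoters, CCAAT, found in 37.4%, and TATAAA, found in 13.6%. The stretches below are shown for Mtf2 and Ezh2, because Mtf2 was low and Ezh2 high at the early stage and both were lower in the treated late embryos in the deposited values. They are the bases before the start that no annotated exon covers, 5′ to 3′ on the gene's strand; capitals mark GGGCGG in Mtf2 and CCAAT in Ezh2, on either strand.
Mtf2, chr5:108065424-108065673, plus strand, 250 to 1 bases before the start: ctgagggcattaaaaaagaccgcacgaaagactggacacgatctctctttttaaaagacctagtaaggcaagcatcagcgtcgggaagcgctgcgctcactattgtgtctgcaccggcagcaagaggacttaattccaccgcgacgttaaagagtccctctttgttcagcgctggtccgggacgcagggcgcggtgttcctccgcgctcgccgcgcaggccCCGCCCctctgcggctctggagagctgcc
Ezh2, chr6:47595059-47595183, minus strand, 153 to 29 bases before the start: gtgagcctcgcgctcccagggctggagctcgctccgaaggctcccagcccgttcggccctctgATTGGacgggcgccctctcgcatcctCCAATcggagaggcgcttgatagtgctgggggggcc
The Mtf2 stretch held 23 CpG and 1 GGGCGG, and the Ezh2 stretch held 11 CpG and 2 CCAAT. Over the whole 300-base window, GGGCGG was also present at Suz12 (3 matches), Phf19 (4), Ring1 (3), Rnf2 (2) and Jarid2 (1), and absent at Ezh1, Ezh2 and Eed. A match is a description of these letters only. RefSeq lists a second Mtf2 start at chr5:108077915-108078214 with 2 CpG.

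Epop lies on chromosome 11 at 97627389 to 97629702 (GRCm38, minus strand; GENCODE M21), and no other annotated gene overlaps it. Epop stood at 1.96 and 3.96 FPKM in the 2 water-injected late 2-cell libraries and at 1.97 and 1.10 FPKM after wild-type Hdac1 mRNA. After mutant Hdac1 mRNA it stood at 70.6 and 94.4 FPKM, a difference of 5.05 on the log2 scale. The 2 groups were far apart, with every mutant library above every library of both control groups.

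The same gene stood at 5.32 and 10.4 FPKM after wild-type Hdac2 mRNA and at 152 and 155 FPKM after mutant Hdac2 mRNA, a log2 difference of 4.19. With DMSO it was 17.9 and 25.2 FPKM, so it was not silent in that control, and with FK228 it was 134 and 195 FPKM, a log2 difference of 2.87. The controls themselves therefore spanned a wide range. Their order from low to high was wild-type Hdac1, water, wild-type Hdac2 and DMSO; wild-type Hdac1 and water overlapped, and the wild-type Hdac2 and DMSO pairs each stood apart from the pair below.

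At the early 2-cell stage Epop was low in both injections, at 1.16 and 0.578 FPKM with wild-type Hdac1 and 2.10 and 2.53 FPKM with mutant Hdac1. From early to late stage it stayed low with wild-type Hdac1 (a log2 difference of 0.44) and was higher by 4.64 with mutant Hdac1. Among the groups with high Epop, the 2 twice-injected groups overlapped each other, and mutant Hdac2 lay within the range of FK228.

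**Figure D1:**
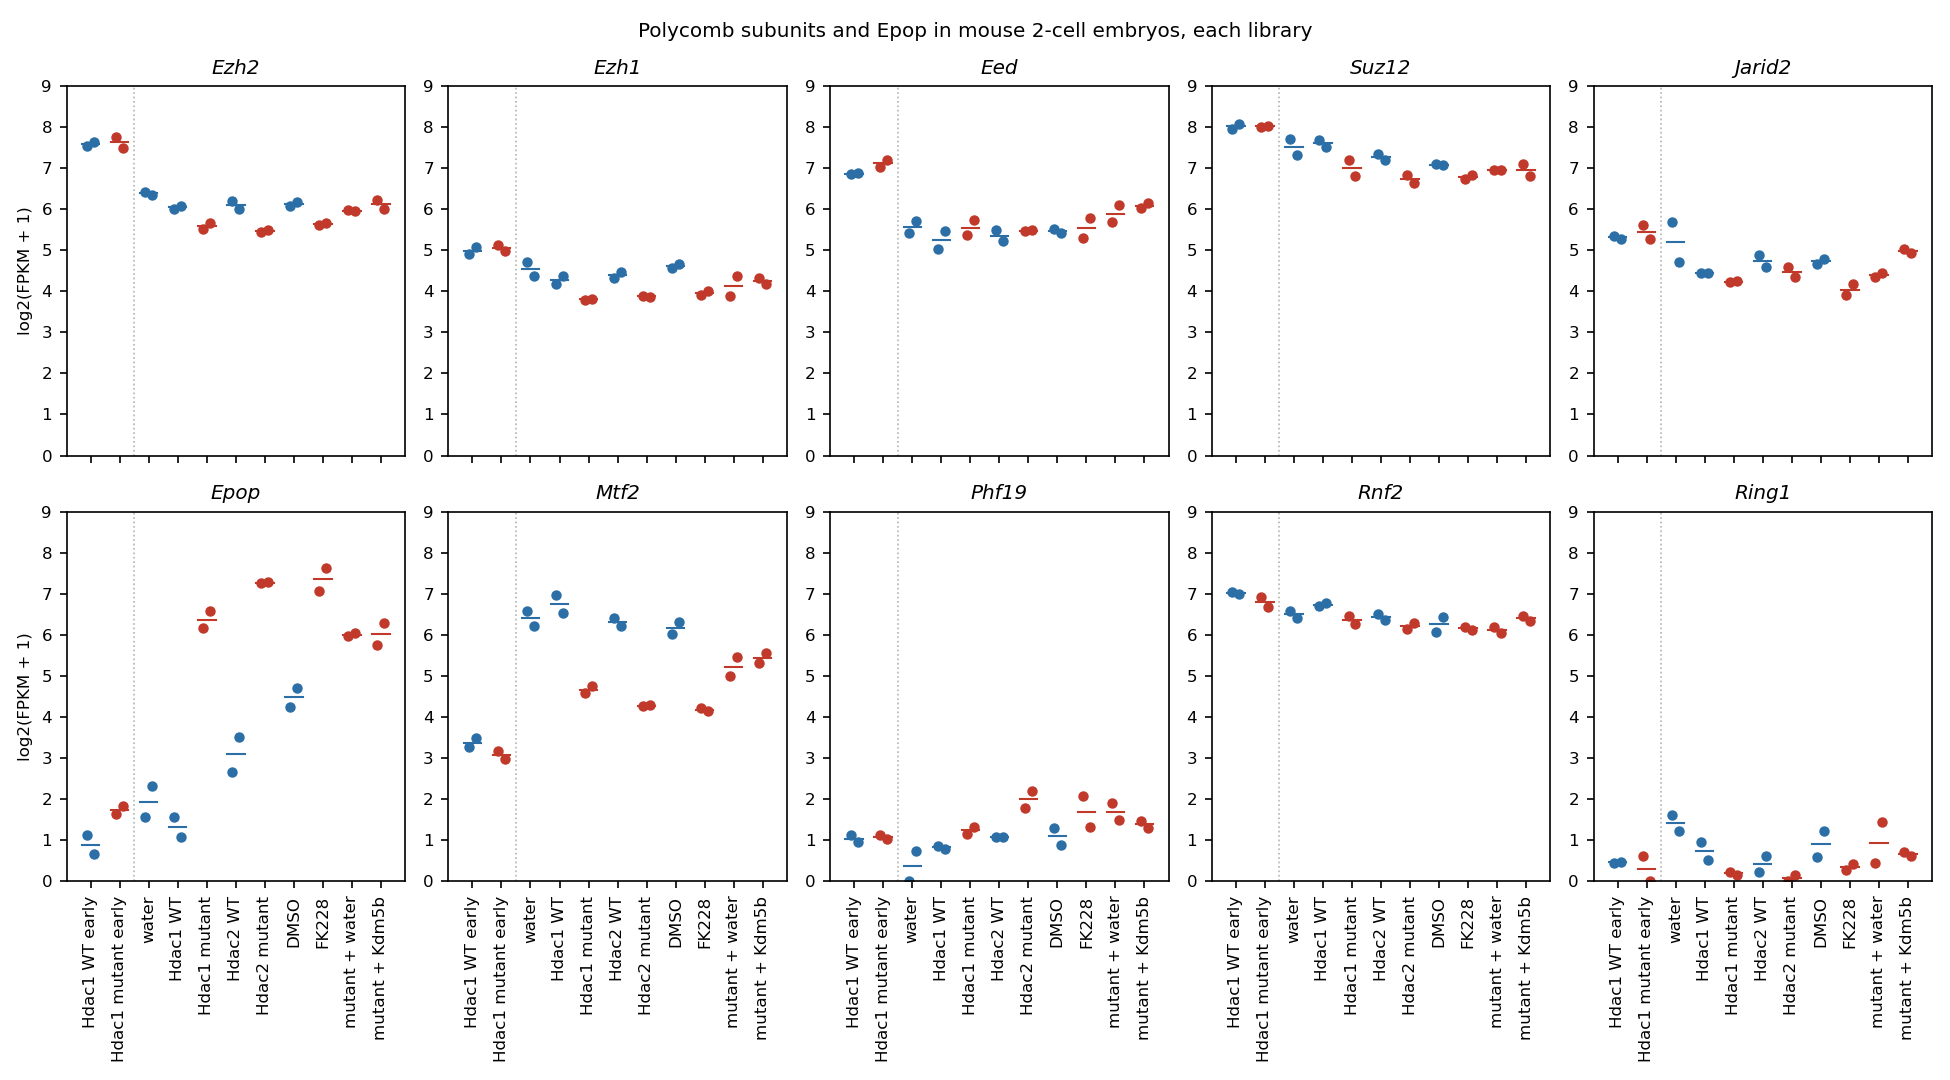
Level of each of the 10 genes in the 22 mouse libraries, as log2(FPKM + 1) on the vertical axis, with 1 point a library and a bar at the mean of each group of 2; blue marks wild-type, water and DMSO groups, red marks mutant and FK228 groups, and the dotted line separates the early 2-cell groups from the late ones. Epop is high in every red late group, Mtf2 is low in both early groups and in the red late groups, and Ezh2 and Eed are highest at the early stage.

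Set against the subunits, Epop, chosen on its levels in these groups, took a larger share of the summed mRNA in the late mutant and FK228 libraries. Its share of the 10 genes' summed FPKM was between 0.073% and 5.17% in the libraries of the controls and of the early stage, with the highest of these in DMSO. The share was between 10.4% and 36.7% in the late mutant and FK228 libraries. The ratio of Epop to Mtf2 FPKM, the 2 genes both being PRC2 accessory subunits, was 0.0157 and 0.0121 after wild-type Hdac1 and 3.09 and 3.65 after mutant Hdac1.

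The core subunits moved less than Epop in the late 2-cell comparisons, a contrast built in by the choice of Epop on its levels in these groups. In the deposited values, with mutant against wild-type Hdac1, 5 of the 9 subunits other than Epop fell (Mtf2, Suz12, Ezh1, Ezh2 and Rnf2) and none rose. Among all tested genes, 21.6% were called lower and 30.5% higher in that comparison. With mutant Hdac2, 4 fell (Mtf2, Ezh2, Suz12 and Ezh1) and 1, Phf19, rose, where 22.2% of all genes were called lower and 30.8% higher. With FK228, 4 fell (Mtf2, Jarid2, Ezh1 and Ezh2) and none rose, where 26.3% of all genes were called lower and 31% higher. Without the second mutant library 2 subunits, Ezh2 and Mtf2, were called for Hdac1 and likewise for Hdac2. Without the second wild-type library 3 were called for each (Ezh2, Suz12 and Mtf2), and for Hdac2 3 without the first wild-type library (Ezh1, Ezh2 and Mtf2). Under quantile normalization, which gives all libraries the same distribution, the split changed in each: 1 was higher and 2 lower with mutant Hdac1 (Eed; Mtf2 and Ring1), 2 higher and 2 lower with mutant Hdac2 (Eed and Rnf2; Mtf2 and Ezh1), and 3 higher and 2 lower with FK228 (Eed, Suz12 and Rnf2; Mtf2 and Ring1).

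**Figure D2:**
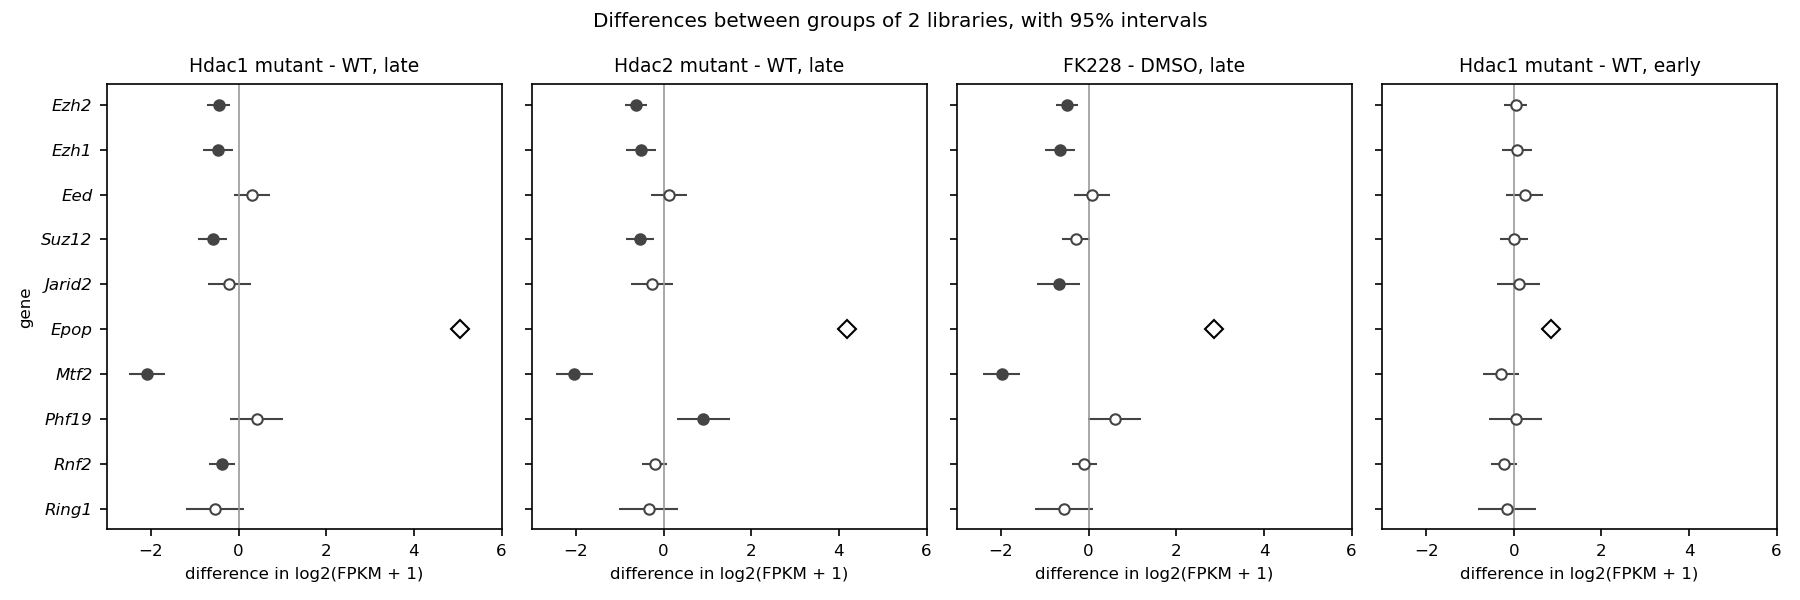
Differences on the log2(FPKM + 1) scale for the 10 genes in 4 comparisons of the deposited values, as points with 95% intervals from limma; filled points passed an adjusted p of 0.05, and Epop is an open diamond with no interval. Mtf2 lies near -2 in the 3 late comparisons, the core subunits lie between -0.66 and 0.30, and no gene is called in the early 2-cell comparison.

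The catalytic subunit Ezh2 stood at 63.4 and 67.1 FPKM with wild-type Hdac1 and at 44.9 and 49.7 FPKM with mutant Hdac1. It fell by 0.46 ± 0.12 (log2, SE; adjusted p = 0.00454), and the groups did not overlap. Its fall was 0.63 with mutant Hdac2, from 72.0 and 63.2 to 42.7 and 44.0 FPKM, and 0.49 with FK228, from 66.6 and 71.5 to 48.0 and 49.6 FPKM. Ezh1, the second catalytic subunit, was at 17.0 and 19.8 FPKM with wild-type Hdac1 and at 12.9 and 13.1 FPKM with mutant Hdac1. It fell by 0.47 with mutant Hdac1, by 0.52 with mutant Hdac2 and by 0.66 with FK228, from 22.9 and 24.2 to 14.1 and 15.0 FPKM.

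The scaffold Suz12 had the highest FPKM of the 9 subunits in late control embryos, 206 and 181 with wild-type Hdac1, against 146 and 112 with mutant Hdac1. It fell by 0.59 ± 0.15 (adjusted p = 0.00351). With mutant Hdac2 it fell by 0.53, from 162 and 146 to 113 and 99.1 FPKM. With FK228 it was 106 and 114 FPKM against 137 and 133 with DMSO, a difference of -0.30 that missed the threshold (adjusted p = 0.101). Eed, the reader of the methyl mark, was called in none of the 3. It stood at 31.7 and 43.5 FPKM with wild-type and 40.7 and 51.9 FPKM with mutant Hdac1, which overlap; the difference was 0.30 with a 95% interval from -0.11 to 0.72.

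The falls of the core subunits shrank or turned under quantile normalization. Summed FPKM over all genes was 331776 and 312735 with late wild-type Hdac1 and 279913 and 261955 with late mutant Hdac1. The sums were 360588 and 358022 with wild-type Hdac2 and 290695 and 291303 with mutant Hdac2. They were 372885 and 375640 with DMSO and 295030 and 282624 with FK228 in mouse. The part of these lower sums in the falls was not tested. The median difference over all tested genes was 0.17 with mutant Hdac1, 0.14 with mutant Hdac2 and 0.15 with FK228 in the deposited values. After quantile normalization those medians were -0.00058, -0.03 and 0, and Ezh2 differed by 0.09 with mutant Hdac1, -0.12 with mutant Hdac2 and 0.17 with FK228, none of them called. Rnf2 turned from lower to higher in all 3 comparisons, called with mutant Hdac2 (0.41) and FK228 (0.61), and Suz12 came to -0.0032 with mutant Hdac1, 0.16 with mutant Hdac2 and, called, 0.44 with FK228. Eed, uncalled in the deposited values, was called higher in all 3 (0.82, adjusted p = 0.00316, with mutant Hdac1; 0.60, 0.0219, with mutant Hdac2; 0.69, 0.00883, with FK228). Ezh1 kept its direction in all 3 comparisons and was called under quantile normalization only with mutant Hdac2. Mtf2 kept its calls.

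The calls of Ezh2 in the 3 late comparisons were each kept when any library was left out. Those of Suz12 were lost without the second mutant Hdac1 library, and for Hdac2 without the first wild-type or the second mutant library. Ezh1 lost its call for Hdac1 without the second wild-type or either mutant library, and for Hdac2 without the second wild-type or either mutant library. Rnf2 lost its call for Hdac1 without either wild-type library or without the second mutant library.

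Mtf2 had the widest relative range of the subunits detected in every mouse library, from 6.91 to 125 FPKM. It lies on chromosome 5 at 108065674 to 108109004 (plus strand). In late 2-cell embryos it stood at 94.7 and 73.5 FPKM with water, 125 and 91.1 FPKM with wild-type Hdac1 and 22.8 and 25.8 FPKM with mutant Hdac1. It fell by 2.09 ± 0.19 (adjusted p = 3.602e-07), and every mutant library was below every control library.

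With mutant Hdac2 Mtf2 fell by 2.03, from 83.7 and 73.1 to 18.2 and 18.5 FPKM (adjusted p = 4.07e-07). With FK228 it fell by 1.99, from 63.3 and 78.9 to 17.6 and 16.6 FPKM (adjusted p = 3.764e-07). The 3 falls were close in size: the mutant Hdac1 effect minus the mutant Hdac2 effect was -0.06 ± 0.27 (95% interval -0.64 to 0.53; adjusted p = 0.970), and minus the FK228 effect -0.11 ± 0.27 (95% interval -0.69 to 0.48; adjusted p = 0.854). None of the 9 subunits was called by limma in either of these differences between comparisons, where 0.104% and 6.97% of all genes were called either way and 1658 and 4155 had an unadjusted p under 0.05. The ratio of Mtf2 to Suz12 FPKM was 0.456 to 0.607 in the late control libraries and 0.146 to 0.232 in the late mutant Hdac1, mutant Hdac2 and FK228 libraries. In the 4 twice-injected libraries it was between, at 0.251 to 0.412. Hdac1 itself was 805 to 917 FPKM in those libraries and 4952 and 4612 FPKM in the other late mutant Hdac1 libraries. In the late wild-type Hdac1 libraries Hdac1 was 2707 and 2960 FPKM. The part of these levels in the ratio was not tested.

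Another protein-coding gene, Tmed5, a cargo receptor of early secretory vesicles, overlaps the 3′ end of Mtf2 on the other strand (chromosome 5, 108106366 to 108132620). The 2 genes share 395 exon bases, 6.93% of the Mtf2 exon bases. No source used here states that strand was used in counting, and without it reads from the shared bases cannot be told apart. Tmed5 moved the same way as Mtf2: it stood at 93.3 and 77.7 FPKM with wild-type Hdac1 and at 17.4 and 35.4 FPKM with mutant Hdac1. Tmed5 fell by 1.74 with mutant Hdac1 (adjusted p = 0.000216), by 2.08 with mutant Hdac2 and by 2.53 with FK228. How far the shared bases carry 1 gene's reads into the other's value was not tested.

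Smaller exon overlaps on the other strand exist for Eed with E230029C05Rik (6.82% of the exon bases of Eed), Rnf2 with Trmt1l (3.83%), Suz12 with Gm26563 (3.6%) and Ezh2 with Gm26625 (2.61%). E230029C05Rik and Trmt1l were not called with mutant Hdac1 or mutant Hdac2, and Trmt1l fell by 0.79 with FK228 (adjusted p = 0.0180), where Rnf2 was not called.

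The other accessory subunits moved less. Jarid2 was at 24.5 and 26.6 FPKM with DMSO and 14.0 and 17.1 FPKM with FK228 and fell by 0.69 ± 0.23 (adjusted p = 0.0176), a call lost under both other scalings and without the second DMSO or the first FK228 library. With wild-type and mutant Hdac1 it was 20.6 and 20.9 against 17.7 and 18.0 FPKM, a difference of -0.21 (95% interval -0.69 to 0.28) that came to 0.01 under quantile normalization. Its 2 water-injected libraries were 50.3 and 25.5 FPKM, a wide spread. Phf19 was scarce, at most 3.56 FPKM, and listed at 0 in 1 water library. It was 1.10 and 1.12 FPKM with wild-type Hdac2 and 2.46 and 3.56 FPKM with mutant Hdac2, where it rose by 0.91 ± 0.28 (adjusted p = 0.0131). That rise lost its call with a pseudocount of 0.1, under quantile normalization and without either wild-type Hdac2 library or the second mutant one.

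Of the 2 PRC1 ligases, Rnf2 was abundant and Ring1 was nearly absent in mouse embryos. Rnf2 was 102 and 109 FPKM with wild-type Hdac1 and 86.6 and 75.4 FPKM with mutant Hdac1, and fell by 0.38 ± 0.14 (adjusted p = 0.0281). It was not called with mutant Hdac2 (-0.20) or FK228 (-0.10). Ring1 reached 1 FPKM in 4 of the 22 libraries, was 2.05 FPKM at most, was listed at 0 in 2, and was not called in any mouse comparison of the deposited values.

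The 2 stages were also compared within each injection. With wild-type Hdac1, 5 of the 9 subunits fell (Eed, Ezh2, Jarid2, Ezh1 and Suz12) and 1, Mtf2, rose, where 28.1% of all genes were called lower and 28.8% higher. Ezh2 was 184 and 198 FPKM at the early stage and 63.4 and 67.1 at the late stage, a fall of 1.53 on the log2 scale (adjusted p = 2.159e-08). Eed was 114 and 117 FPKM early and fell by 1.62. Suz12, at 248.7 and 268.1 FPKM early, fell by 0.42, a call that was lost under 5 of 11 alternatives.

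Mtf2 went the other way, from 8.57 and 10.2 FPKM to 125 and 91.1 FPKM, a rise of 3.38 ± 0.19 (adjusted p = 7.274e-10). Tmed5 rose by 3.88 over the same interval, from 3.79 and 6.16 FPKM. The maternal oocyte markers fell in 11 of 12 genes and rose in 1 between these stages. With mutant Hdac1, 6 subunits fell and Mtf2 rose by 1.58, from 8.02 and 6.91 to 22.8 and 25.8 FPKM, where 25.8% of all genes were called lower and 40.6% higher. The sixth, Rnf2, fell by 0.43 and turned to a called rise of 0.40 under quantile normalization.

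At the early stage no subunit differed beyond the threshold. Limma called 0 of 9 in mutant against wild-type Hdac1 at 24 h, where 0.56% of all genes were called either way and 1057 had an unadjusted p under 0.05. Mtf2 differed by -0.29 ± 0.19 (95% interval -0.71 to 0.12). Suz12 stood at 254 and 262 FPKM with the mutant and 248.7 and 268.1 with the wild type, which overlap.

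The difference of the mutant effect between late and early stage was tested directly. It was called for 3 subunits, all more negative at the late stage, where 15.2% of all genes were called lower and 21.2% higher. Mtf2 had a difference of -1.80 ± 0.27 (adjusted p = 0.000129). Ezh2 had -0.50 ± 0.17 (adjusted p = 0.0304) and Suz12 -0.59 ± 0.21 (adjusted p = 0.0395). The calls of Ezh2 and Suz12 were lost under quantile normalization, where they came to 0.06 and 0.01, with only the compared groups and in 4 and 6 of the 8 fits that left out 1 library; that of Mtf2 was kept in 15 of 15 alternatives. Without the first early wild-type or the first early mutant library, Mtf2 was the 1 subunit called.

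**Figure D3:**
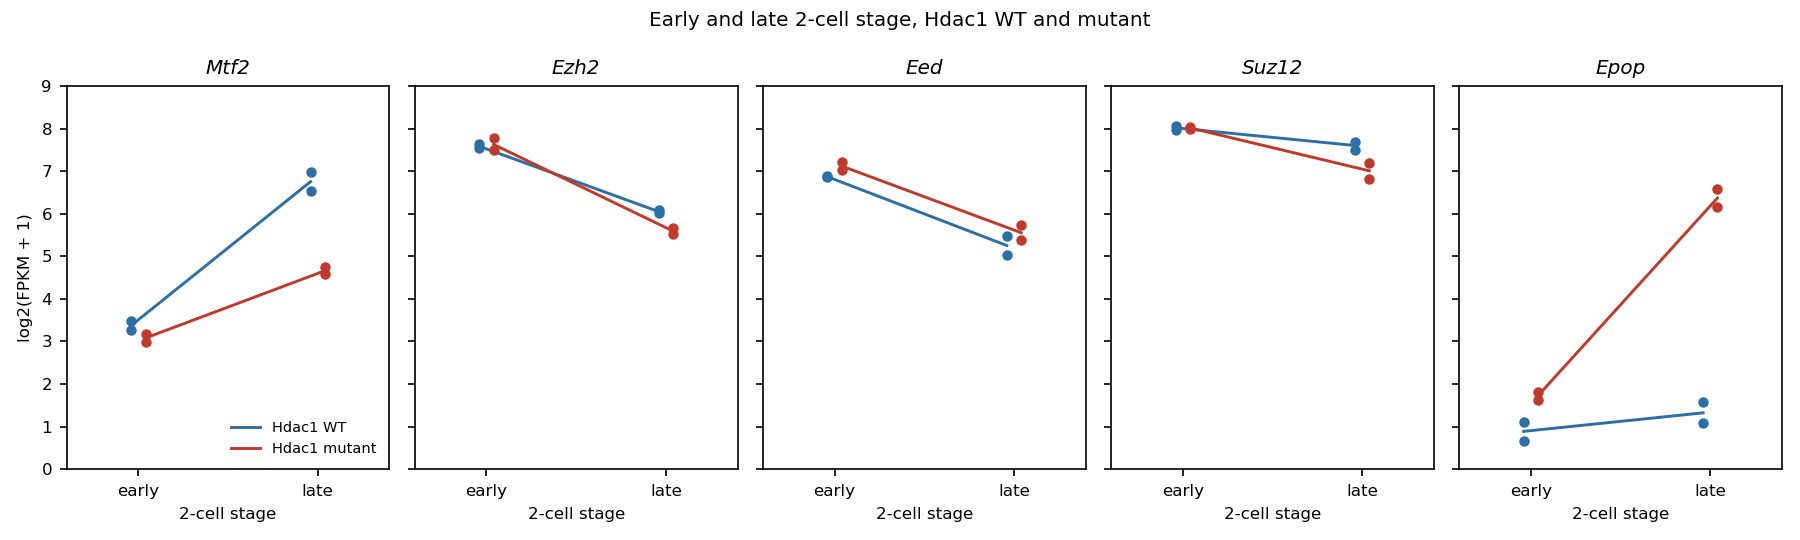
Level of Mtf2, Ezh2, Eed, Suz12 and Epop at the early (24 h) and late (36 h) 2-cell stage, as log2(FPKM + 1) on the vertical axis, 1 point a library and lines through the group means; blue is wild-type and red mutant Hdac1. No subunit is called between the injections at 24 h, and at 36 h Mtf2 is lower and Epop higher with the mutant.

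After a second injection of Kdm5b mRNA, the Epop libraries overlapped those with water. Epop stood at 52.6 and 77.6 FPKM with Kdm5b and at 61.3 and 64.9 FPKM with water as the second injection. The difference was 0.02 ± 0.32 (95% interval -0.66 to 0.70), and the water pair lay inside the Kdm5b pair. Both are groups of the treated kind in which Epop was known to be high, so the values are a description. Its sign changed with scaling: median-ratio scaling gave -0.038 and quantile normalization -0.17.

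Limma called 0 of the 9 subunits after Kdm5b, where 1.04% of all genes were called either way and 2586 had an unadjusted p under 0.05. Mtf2 was 38.8 and 45.9 FPKM with Kdm5b and 30.6 and 43.0 FPKM with water, a difference of 0.21 (95% interval -0.20 to 0.63). Jarid2 was 31.6 and 29.7 FPKM against 19.2 and 20.8 FPKM; the pairs did not overlap, and the difference of 0.59 ± 0.23 missed the threshold (adjusted p = 0.224).

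Wild-type deacetylase mRNA against water gave no call among the 9 either. Limma called 0 with wild-type Hdac1, where 2.19% of all genes were called either way and 2739 had an unadjusted p under 0.05. It called 0 with wild-type Hdac2, where the figures were 9.45% and 3905. Without the second water library Jarid2 was called in both comparisons and Phf19 in that of wild-type Hdac2.

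In bovine embryos, 3 of the 9 subunits fell with FK228, EED, EZH2 and RING1, and PHF19 rose, where 27.4% of all bovine genes were called lower and 22.2% higher. EZH2 was 45.9 and 49.9 FPKM with DMSO and 25.4 and 24.6 FPKM with FK228, and fell by 0.91 ± 0.16 (adjusted p = 0.00220). EED was 27.7 and 24.0 against 11.4 and 7.81 FPKM, and fell by 1.35 ± 0.22 (adjusted p = 0.00134). RING1 was 7.24 and 6.23 against 2.98 and 2.93 FPKM, and fell by 0.96 ± 0.21 (adjusted p = 0.00557). These 3 calls were kept in every alternative run. Mouse Eed with FK228 was not called in the deposited values and was called higher under quantile normalization.

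Every bovine library exceeded 1 FPKM of RING1. PHF19 was 0.795 and 0.827 FPKM with DMSO and 1.78 and 1.70 with FK228, so it was tested only because its FK228 libraries passed the level filter, and its call was lost in 6 of 9 alternatives. SUZ12 was 27.6 and 23.8 FPKM with DMSO and 29.4 and 20.2 with FK228, and the pairs overlap. JARID2, RNF2 and EZH1 were not called.

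MTF2, which fell in all 3 late mouse comparisons, was not called in cattle. It stood at 23.6 and 23.9 FPKM with DMSO and 27.5 and 20.5 with FK228, a difference with a 95% interval from -0.44 to 0.45 (adjusted p = 0.997). TMED5, its mouse neighbour, was 39.3 and 35.8 FPKM with DMSO and 6.58 and 4.18 with FK228, and fell by 2.62 ± 0.22 (adjusted p = 8.373e-05). The mouse and bovine tables were normalized separately and the stages differ, and the difference between species was not tested.

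EPOP was present in control bovine embryos at 9.48 and 13.8 FPKM, and stood at 22.5 and 21.3 FPKM with FK228. It rose by 0.88 ± 0.21 (95% interval 0.39 to 1.37; adjusted p = 0.00972), and the groups did not overlap. Without the first DMSO library the difference was 0.63 and not called (adjusted p = 0.0690). The share of EPOP in the 10 genes' summed FPKM was 4.74% and 6.93% with DMSO and 13% and 14.6% with FK228.

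**Figure D4:**
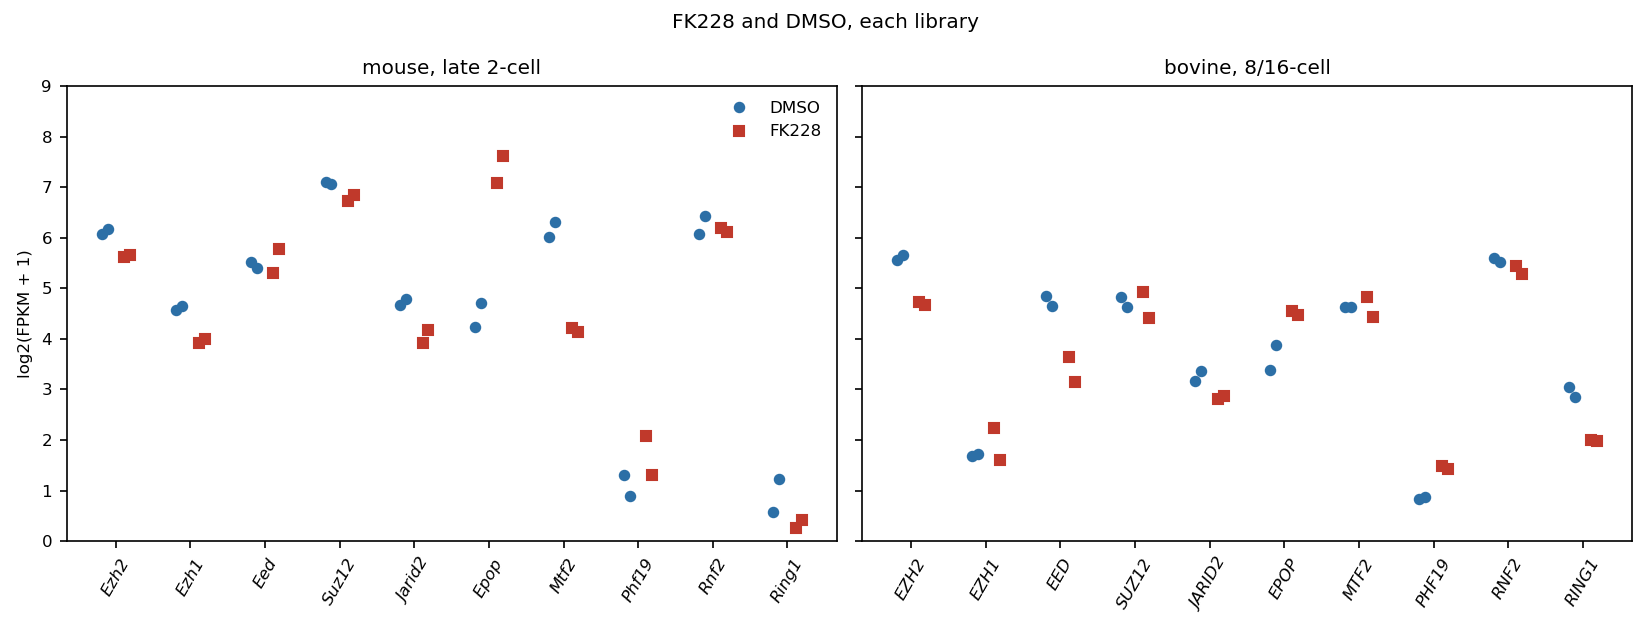
Level of the 10 genes with DMSO (circles) and FK228 (squares) in mouse late 2-cell and bovine 8/16-cell embryos, as log2(FPKM + 1), 1 point a library. In mouse the widest gaps are those of Epop and Mtf2. In cattle the pairs of MTF2, SUZ12 and EZH1 overlap between treatments, and JARID2 and RNF2 were not called either.

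Other genes of the pathway were read from lists. Their counts of called genes are to be read beside the shares of all genes called, 30.5% higher and 21.6% lower with mutant Hdac1, 30.8% and 22.2% with mutant Hdac2, 31% and 26.3% with FK228, and 22.2% and 27.4% in cattle. Of the 3 partners of Epop, Eloc and Usp7 fell and Elob was not called with mutant Hdac1; all 3 fell with mutant Hdac2 and with FK228. Eloc, elongin C, was 173 and 308 FPKM with wild-type and 73.6 and 105 FPKM with mutant Hdac1, a fall of 1.38 on the log2 scale. Usp7, a deubiquitinase, was 109 and 107 against 49.1 and 54.8 FPKM, a fall of 1.04. In the 3 late comparisons, Epop was higher and Eloc and Usp7 lower in the same libraries. The Eloc call with mutant Hdac1 was lost with only the compared groups. In the twice-injected libraries with water, Epop stood at 61.3 and 64.9 FPKM and Eloc at 168.5 and 170 FPKM. That Eloc pair lay within the range of the water-injected controls, 162.6 and 324.7 FPKM. Usp7 was 64.15 and 68.06 FPKM there, below the 109.3 and 99.49 FPKM of those controls. In cattle USP7 (226 and 214 to 113 and 98.2 FPKM) and ELOC (63.0 and 58.3 to 38.3 and 34.1 FPKM) also fell.

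Among the 5 other PRC2 genes tested, 3 fell and 1 rose with mutant Hdac1. The histone-binding subunit Rbbp4 went from 22.02 and 27.83 to 10.8 and 19.9 FPKM, and the accessory subunit Aebp2 from 65.1 and 46.6 to 38.2 and 37.6 FPKM. Rbbp7, the paralog of Rbbp4, fell from 94.1 and 103 to 70.7 and 74.5 FPKM, and its difference turned to 0.16 under quantile normalization. The calls of Rbbp4, Aebp2 and Rbbp7 were all lost under quantile normalization and with only the compared groups. Phf1, the third Polycomb-like protein, rose from 241 and 215 to 276 and 311 FPKM, a call also lost with only the compared groups. The water-injected pair, at 225 and 285 FPKM, overlapped the mutant pair. Phf1 was 389 and 378 FPKM with mutant Hdac2 against 429 and 464 FPKM with wild-type Hdac2. With FK228 it was 370 and 415 FPKM against 355 and 345 FPKM with DMSO. Leaving out single libraries ended the call of Rbbp4 (the second wild-type or first mutant), Rbbp7 (the second wild-type), Aebp2 (the first wild-type) and Phf1 (the second of either). In cattle 4 of 6 fell, with RBBP4 going from 183 and 160 to 58.5 and 41.7 FPKM.

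Of 24 other PRC1 genes, 10 rose and 6 fell with mutant Hdac1, with a median difference of 0.21 against 0.17 over all genes. The chromodomain subunits Cbx8 (2.51 and 1.06 to 16.9 and 12.4 FPKM) and Cbx6 (listed at 0 and 0.255, then 6.69 and 4.42 FPKM) rose. Pcgf6, which defines a variant PRC1, fell from 75.3 and 64.4 to 14.1 and 13.9 FPKM. Without the level filter 9 rose and 6 fell. In cattle 5 rose and 6 fell of 24, near the shares of all bovine genes, with CBX2, CBX7 and CBX8 among those that rose and KDM2B falling from 25.5 and 30.2 to 8.18 and 5.83 FPKM.

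Enzymes that remove Polycomb marks were mixed. Of 3 H3K27 demethylases Kdm6b rose, from 9.87 and 10.4 to 15.9 and 18.7 FPKM, and Kdm6a and Uty fell. Kdm6a lost its call whichever single library was left out, and Kdm6a and Uty lost theirs with only the compared groups. Of the 7 genes tested of the Polycomb deubiquitinase list, Asxl1 (20.7 and 23.4 to 11.6 and 11.8 FPKM) and Asxl2 (13.5 and 8.82 to 0.808 and 1.87 FPKM) fell. Mbd6 rose, a call lost with only the compared groups and without the second wild-type or the second mutant library.

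Most of the listed developmental regulators that Polycomb keeps silent in other cell types rose in the late treated embryos. Of 40 such genes, 34 rose and 1 fell with mutant Hdac1 when no level filter was used, with a median difference of 2.15. The corresponding counts were 35 and 2 with mutant Hdac2 and 36 and 2 with FK228. Over all genes with no level filter, 5669 were called higher and 3636 lower with mutant Hdac1. Those counts were 5942 and 3679 with mutant Hdac2 and 6159 and 4435 with FK228. They are out of at most 27988 genes, those at 0 in every library left out. The list was made with earlier results of these data known. The genes named next were at 2.78 FPKM or less with wild-type Hdac1, where a fall can hardly be seen. Genes at 1 FPKM or more numbered 11284 and 11628 with late wild-type Hdac1 and 13474 and 14341 with late mutant Hdac1. Msx1, a homeobox factor, went from 2.75 and 2.78 to 95.1 and 94.2 FPKM, and Pax6, an eye and neural factor, from 1.17 and 1.56 to 33.2 and 44.5 FPKM. The endoderm factor Sox17 went from 0.987 and 0.041 to 28.9 and 27.4 FPKM, and Irx3 from 0 and 0.821 to 29.2 and 33.8 FPKM. With the mutant at the early stage 3 rose and 0 fell, beside 62 higher and 76 lower over all genes with no level filter. In cattle 10 of 38 rose and 5 fell with no level filter. Of all bovine genes that passed the filter, 22.2% were called higher and 27.4% lower. Limma called 0 of the 40 after Kdm5b, with a median difference of -0.47 against -0.02 over all genes tested.

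Of 6 genes known to be imprinted through the Polycomb mark, 3 rose with mutant Hdac1 and none fell, with or without the level filter. The 3 that rose were under 1 FPKM with wild-type Hdac1, where a fall can hardly be seen. With mutant Hdac2 3 rose and 0 fell, and with FK228 3 rose and 1 fell. In cattle 0 of the 4 tested rose and 2 fell. Smoc1 was listed at 0 in both wild-type Hdac1 libraries and was 3.69 and 2.72 FPKM with the mutant. Slc38a4 went from 0.280 and 0.085 to 1.41 and 3.43 FPKM, and Sfmbt2 from 0.349 and 0.257 to 0.998 and 1.32 FPKM. The call of Sfmbt2 was lost under quantile normalization and without the second wild-type or second mutant library. That of Slc38a4 was lost with only the compared groups.

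**Figure D5:**
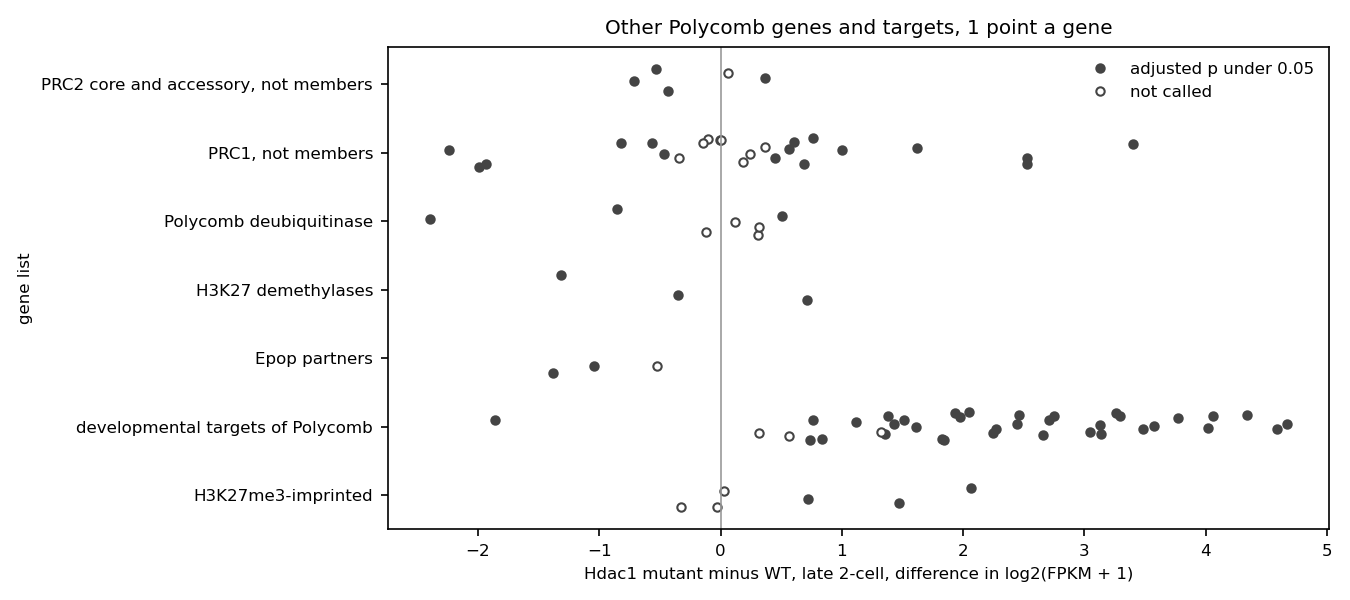
Differences between mutant and wild-type Hdac1 at the late 2-cell stage on the log2(FPKM + 1) scale, 1 point a gene in each list, filled where the adjusted p was under 0.05. Most developmental targets lie above 0, with Msx1 at 4.67, while Eloc and Usp7, at -1.38 and -1.04, lie below it.

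Markers of other cell types moved with Epop in part. With no level filter, 5 of the 8 blood genes rose and none fell in each late mouse comparison. The counts over all genes with no filter are those given with the developmental regulators. The summed FPKM of the 8 blood genes was 1.78 to 16.1 in the controls and early libraries and 96.0 to 211 in the late mutant and FK228 libraries. The globins Hbb-bs and Hbb-bt were at 0 in all late mutant and wild-type Hdac1 and Hdac2 libraries. The 10 cumulus and granulosa markers summed to between 0.477 and 20.5 FPKM and the 7 sperm markers to at most 8.45 FPKM in any mouse library. Markers of the 2-cell embryo rose in 7 of 9 genes with mutant Hdac1, 8 with mutant Hdac2 and 8 with FK228, and the oocyte list had 1, 0 and 1 of 12 risen and 1 fallen in each. The part of these markers in the levels of Epop and Mtf2 was not tested.

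Over the 11 mouse group means, the genes whose pattern was most like that of Epop were Hes1 (Pearson r = 0.992), Fhdc1 (0.990), Mast3 (0.990), Hrh3 (0.989) and Nkx6-2 (0.989). Those most like Ezh2 were Arpc5l, Rbbp7 and Cep120 (0.990 each) and Med28 and Lrrc57 (0.989 each). Rbbp7 is itself a PRC2 subunit. Between members, Ezh1 and Ezh2 followed each other (r = 0.941) and Epop was opposite to Suz12 (r = -0.938) in the deposited values. Epop was chosen on its levels in these groups, and the lower Suz12 of the late treated groups was lost or turned under quantile normalization. Mtf2 was opposite to Eed (r = -0.752), with Mtf2 lowest and Eed highest in the early groups. Mtf2 and Epop had an r of -0.114, and both were low in the early groups. Among the late control groups, Mtf2 means were 71.1 to 108 FPKM and Epop means 1.54 to 21.5 FPKM. Among the late mutant and FK228 groups, Mtf2 means were 17.1 to 42.4 FPKM and Epop means 63.1 to 165 FPKM. These correlations describe 11 groups that share their libraries and stages.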

How the data were processed

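Per the labels' protocols, RNA of mouse and bovine embryos was isolated with the Picopure kit, selected with oligo(dT) beads and made into NEBNext Ultra libraries, with no step described that marks strand. Per the submitters' processing notes, the tools were Trimmomatic, HISAT2, featureCounts, Cufflinks and DESeq2 and the builds GRCm38 and ARS-UCD1.2; no source used here gives their roles or settings. The authors deposited 1 FPKM table for each species, with no read counts, so absolute depth is unknown.

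From the FPKM values, limma 3.58.1 (R 4.3.3) was run on log2(FPKM + 1), with 1 coefficient a group, a variance trend and all libraries of a species in 1 fit (11 residual degrees of freedom in mouse, 2 in cattle). Genes with at least 1 FPKM in at least 2 libraries were tested, two-sided, in 10 comparisons of 2 groups and 3 differences between comparisons. The procedure was tested on simulated data. Groups were taken from the labels.

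The members and all gene lists were chosen with earlier results of these data known. All 10 members are named; of each wider list, up to 4 genes with the largest difference among calls whose groups did not overlap; of genes like Epop or Ezh2, the 5 with the highest correlation of group means, reaching at least 5 FPKM. One gene that this rule names is not reported here. Overlapping genes were read from GENCODE M21. Alternatives were a pseudocount of 0.1, no filter, a filter of 5 FPKM, median-ratio scaling, quantile normalization, a replicate block, the compared groups alone, and each library left out.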

Additional observations from a re-analysis of the deposited data

Results flagged for a closer look

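For 3 subunits the effect of mutant Hdac1 differed between the late and the early 2-cell stage by the test of the difference itself (limma, 2 libraries in each of the 4 groups). Mtf2 had a late minus early difference of -1.799 on the log2(FPKM + 1) scale. Its group means were 24.3 FPKM with the mutant and 108 with the wild type at 36 h, against 7.47 and 9.39 at 24 h. For Ezh2 the difference was -0.4994, with means of 47.3 and 65.2 FPKM late against 197.5 and 190.9 early. For Suz12 it was -0.5929, with 128.7 and 193.6 FPKM late against 257.9 and 258.4 early. The overlap of Mtf2 with Tmed5 applies here as well: Tmed5 had a late minus early difference of -1.37 (adjusted p = 0.0232). The Ezh2 and Suz12 differences lost their call under quantile normalization, with only the compared groups, and in 4 and 6 of the 8 fits that left out a library, and Suz12 also with no level filter; that of Mtf2 kept it in all 15 alternatives.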

How the results depend on the processing

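With 2 libraries a group, the count of called subunits moved with the fit. For mutant Hdac1 at the late stage it was 5 of 9, then 3 under quantile normalization (Mtf2 and Ring1 lower, Eed higher), 1 with only the compared groups (Mtf2), and 2 to 4 when a library was left out. For mutant Hdac2 it was 5 (1 higher, 4 lower), then 4 under quantile normalization (2 and 2), and 2 to 4 when a library was left out. For FK228 it was 4 (all lower), and 5 under quantile normalization (3 higher, 2 lower). Jarid2 left that count under median-ratio scaling and without the second DMSO or the first FK228 library. For the late minus early difference it was 3, then 1 (Mtf2) under quantile normalization or with only the compared groups, and 1 to 2 with a library left out. Wild-type Hdac1 against water had 0, and 0 to 1 with a library left out. Wild-type Hdac2 against water had 0, then 1 (Ring1) under median-ratio scaling and 0 to 2 with a library left out. Same-numbered libraries did not deviate together: over 55 pairs of groups their deviations correlated at -0.0893 to 0.175, median 0.023, with 3 over 0.1. The fit with a replicate block gave the same 5, 5, 4 and 3 calls for mutant Hdac1, mutant Hdac2, FK228 and the late minus early difference, changed the count of called subunits in no other comparison and ended no call of a named gene.

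Named differences whose direction turned under quantile normalization, with their log2 values there, included for mutant Hdac1 Ezh2 (0.089), Rnf2 (0.22), Rbbp7 (0.16), Jarid2 (0.0125) and Phf19 (-0.18); for mutant Hdac2 Suz12 (0.16) and Rnf2 (0.41); for FK228 Ezh2 (0.17), Suz12 (0.44) and Rnf2 (0.61); from early to late Suz12 with wild-type (0.15) and mutant Hdac1 (0.16) and Rnf2 (0.40) and Phf19 (-0.60) with the mutant; and for late minus early Ezh2 (0.061), Suz12 (0.0125), Phf19 (-0.20) and Rnf2 (0.41). Uncalled differences near 0 that turned were Ezh2 and Suz12 after Kdm5b (-0.016 and -0.20), Ezh2 for Hdac1 minus FK228 (-0.078), and bovine SUZ12 (0.069) and RNF2 (0.0021). Rnf2 with FK228 was 0.062 under median-ratio scaling and -0.27 to 0.082 with a library left out. Small differences crossed 0: Epop after Kdm5b came to -0.038 (median-ratio), -0.17 (quantile) and -0.26 to 0.30 with a library left out, and Mtf2 after Kdm5b was -0.027 to 0.45. The Mtf2 difference between mutant Hdac1 and mutant Hdac2 was -0.29 to 0.17, and that to FK228 -0.33 to 0.12. Bovine MTF2 was -0.076 under median-ratio scaling and -0.20 to 0.20 with a library left out. The cause was not tested.

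Counts over all genes called moved by more than 1.5 times as follows, higher then lower. Mutant Hdac1, late, had 5281 and 3746, and 3118 and 2186 with only the compared groups. A filter of 5 FPKM gave 3383 in place of 5339 higher for mutant Hdac2 and 3410 in place of 5366 for FK228. The early comparison had 40 and 57, and 156 and 144 with a pseudocount of 0.1, 62 higher with no filter and 78 higher under quantile normalization. Kdm5b had 72 and 109, and 8 and 4 with that pseudocount, 20 and 64 (median-ratio), 32 and 46 (quantile) and 46 higher with the block. Wild-type Hdac1 against water had 61 and 318, with 109 higher (pseudocount), 94 higher (median-ratio) and 112 lower (quantile). Wild-type Hdac2 against water had 1143 and 495, with 758 higher (quantile). The Hdac1 minus Hdac2 difference had 7 and 11, with 12 and 19 (no filter), 2 lower (pseudocount) and 6 lower (5 FPKM). The Hdac1 minus FK228 difference had 826 and 382, with 415 higher (median-ratio), 122 lower (pseudocount) and 254 lower (5 FPKM). With only the compared groups the last gave 5 and 1, and the early, Kdm5b, wild-type against water and Hdac1 minus Hdac2 comparisons gave 0. With a library left out, the early comparison had 8 to 40 and 19 to 76, Kdm5b 4 to 32 and 8 to 99, wild-type Hdac1 22 to 257 and 121 to 469, wild-type Hdac2 569 to 972 and 195 to 495, Hdac1 minus Hdac2 5 to 51 and 6 to 37, and Hdac1 minus FK228 309 to 830 and 123 to 544. Bovine genes called higher were 2789, and 1773 without the first DMSO library.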
